A study of Mus musculus with 12 samples.

Results

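The interleukins, chemokines and colony-stimulating factors and their receptors were examined in undifferentiated spermatogonia of control and cryptorchid mouse testes. The genes were taken by symbol from the deposited table of log2 RPM values (RPM scales the reads of a gene to the size of its library), as symbols that begin with *Il*, *Ccl*, *Cxcl*, *Ccr* or *Cxcr* and a digit, or with *Csf* and a digit from 1 to 3. This gave 143 of the 21859 genes in the table, and no measured value was used to choose them. They comprised 39 interleukin ligands, 41 interleukin receptor subunits, 24 CC chemokines, 12 CXC chemokines, 17 chemokine receptors, 8 colony-stimulating factors and their receptors, and 2 other proteins with interleukin names, the enzyme *Il4i1* and the IL-18 binding protein *Il18bp*.

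RNA was measured in 12 libraries, 5 from control and 7 from cryptorchid testes, all of male mice carrying a GFRa1-EGFP reporter, in which EGFP follows the gene of the GDNF receptor *Gfra1*. In adult mice of 8 to 10 weeks, the left testis was fixed to the wall of the abdomen and the right one stayed in the scrotum as the control, and cells were taken on day 10 after surgery. The labels give the genotype of the control samples as WT and that of the others as Cryptorchid, which names the surgery and not an allele. GFRa1+/KIT- cells were sorted, and RNA corresponding to about 200 cells was amplified as full-length cDNA by Smart-seq2, which carries no molecular identifiers. Control testes were digested at 32°C and cryptorchid testes at 37°C, so the effect of the position of the testis and that of the digestion cannot be told apart. Which libraries came from the same mouse is not stated, and *P*-values measure the spread between these samples only.

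Interleukins and colony-stimulating factors are secreted proteins that bind receptors made of 1 or more subunits on the cell surface, many of which signal through JAK kinases, while those of the IL-1 and IL-18 family signal through the adaptor MYD88. Chemokines are small secreted proteins that guide cell migration through G protein-coupled receptors. In the testis, CXCL12 is known as a niche factor made by somatic cells that acts on spermatogonial stem cells through CXCR4, and CSF1 is a factor of interstitial cells that acts on cells with the receptor CSF1R. Most other genes of these families are known from immune cells.

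The proximal promoters of 4 genes on which the results turn are shown, a chemokine (*Cxcl12*), its receptor (*Cxcr4*), a type 2 interleukin (*Il4*) and a CC chemokine (*Ccl1*). They are the 250 bases before the start of each gene, from RefSeq on GRCm38.p6, written 5′ to 3′ on the strand of the gene. The *Cxcl12* window is chr6:117168285-117168534 (+), that of *Cxcr4* chr1:128592300-128592549 (-), that of *Il4* chr11:53618666-53618915 (-) and that of *Ccl1* chr11:82179813-82180062 (-). Capitals mark matches on either strand. The motifs searched were the box bound by SP1 (GGGCGG), the letters of the core promoter box TATAAA, and inverted pairs of the half-site of the heat shock element (GAANNTTC and TTCNNGAA).
Cxcl12: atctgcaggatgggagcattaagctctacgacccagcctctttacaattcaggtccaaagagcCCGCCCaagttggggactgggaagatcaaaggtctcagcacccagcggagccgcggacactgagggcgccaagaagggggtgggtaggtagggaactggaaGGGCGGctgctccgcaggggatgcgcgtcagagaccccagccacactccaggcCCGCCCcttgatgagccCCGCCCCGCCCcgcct
Cxcr4: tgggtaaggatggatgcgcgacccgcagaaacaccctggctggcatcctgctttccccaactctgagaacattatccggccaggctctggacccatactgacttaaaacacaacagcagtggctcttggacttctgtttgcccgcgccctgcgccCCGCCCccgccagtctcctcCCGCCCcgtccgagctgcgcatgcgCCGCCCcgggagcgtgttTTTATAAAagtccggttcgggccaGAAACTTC
Il4: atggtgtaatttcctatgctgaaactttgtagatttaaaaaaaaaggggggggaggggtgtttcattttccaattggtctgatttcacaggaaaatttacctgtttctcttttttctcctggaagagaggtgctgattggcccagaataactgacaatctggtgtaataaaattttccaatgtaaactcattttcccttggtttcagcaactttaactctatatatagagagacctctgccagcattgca
Ccl1: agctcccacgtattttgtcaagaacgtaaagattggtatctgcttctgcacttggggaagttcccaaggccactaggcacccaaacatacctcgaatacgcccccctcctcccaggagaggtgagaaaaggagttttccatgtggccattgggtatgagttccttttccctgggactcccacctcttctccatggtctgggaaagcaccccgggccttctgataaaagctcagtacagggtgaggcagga
The *Cxcl12* window held 5 matches to the SP1 box, of which the last pair overlapped by 1 base, and 14 CpG. The *Cxcr4* window held 3 matches to the SP1 box, a pair of overlapping TATAAA matches 32 to 25 bases before the start, 1 match to GAANNTTC in the last 8 bases, and 19 CpG. The windows of *Il4* and *Ccl1* held none of these letters, with 0 and 5 CpG. Over all 32851 promoters of this length, the SP1 box letters were in 32.74%, TATAAA in 12.37%, GAANNTTC in 6.69% and TTCNNGAA in 7.17%. Over the 131 promoters of the 109 cytokine and receptor genes that matched the table, the shares were 22.14%, 18.32%, 4.58% and 4.58%.

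Most of these genes were read rarely or not at all in the sorted cells. No read fell on 20 of the 143 genes in any library, 35 had reads in all 12 libraries, and each library had reads on 60 to 99 of them. The libraries held 4511730 to 24345368 reads on genes in the control group and 3306771 to 20027902 in the cryptorchid group, so 1 read stood for 0.0348 to 0.2928 RPM. To make libraries of different depth comparable, values below the highest of the 12 library minima were set to it, a common floor of -1.92 log2 RPM. Genes with a mean RPM above -1 on the log2 scale were tested, which left 75 of the 143 (of 16932 of all genes) and put 68 below the limit, 48 of these with some reads. The summed level of all 143 genes was 616 to 864 RPM in control and 738 to 1050 RPM in cryptorchid libraries.

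The genes without reads included genes of the cytokine cluster that holds *Il4* on chromosome 11 (*Il13*, *Il3* and *Csf2*; *Il5* had 1 read in all), the B and T cell chemokines *Cxcl13*, *Ccl21a* and *Ccl20*, the IL-1 receptor antagonist *Il1rn* and the lymphoid homing receptor *Ccr7*. For a gene with no read, 3 reads of the shallowest library, -0.19 log2 RPM, give the level up to which it could be present there. These floors and the read numbers cover counting error only.

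The receptors made up the larger part of the signal, with 359 to 441 RPM summed over the interleukin receptors in control and 395 to 542 RPM in cryptorchid libraries, beside 33.0 to 91.0 and 49.3 to 141 RPM for the interleukin ligands. Per length of the annotated exons, the highest mean levels over the 12 libraries were those of *Il18*, a cytokine of the IL-1 family, at 40.1 RPM per kb, *Il11ra1*, the ligand-binding subunit of the IL-11 receptor, at 21.6, *Il1r2*, the decoy receptor of IL-1, at 17.3, and *Ccr9*, the receptor of CCL25, at 12.3. *Il4i1*, an amino acid oxidase, had 24.0 RPM per kb in control and 21.5 in cryptorchid cells, but its exons overlap those of *Nup62* on the same strand, and its reads cannot be assigned with certainty. *Ccr9* shares exon sequence with another gene model on its strand and with *Slc6a20a* on the other, so its level is uncertain too. *Il11ra1* meets *Ccl27a*, on the other strand, only at its last bases (41769467 to 41769474 on chromosome 4). In the heat map by library, 28 of the 75 genes tested were above the common floor in every library, among them *Il18*, *Ccl25*, *Csf1* and *Il4i1*. Of the others, 30 were at the floor in libraries of both groups, 5 in control libraries only and 12 in cryptorchid libraries only.

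**Figure D1:**
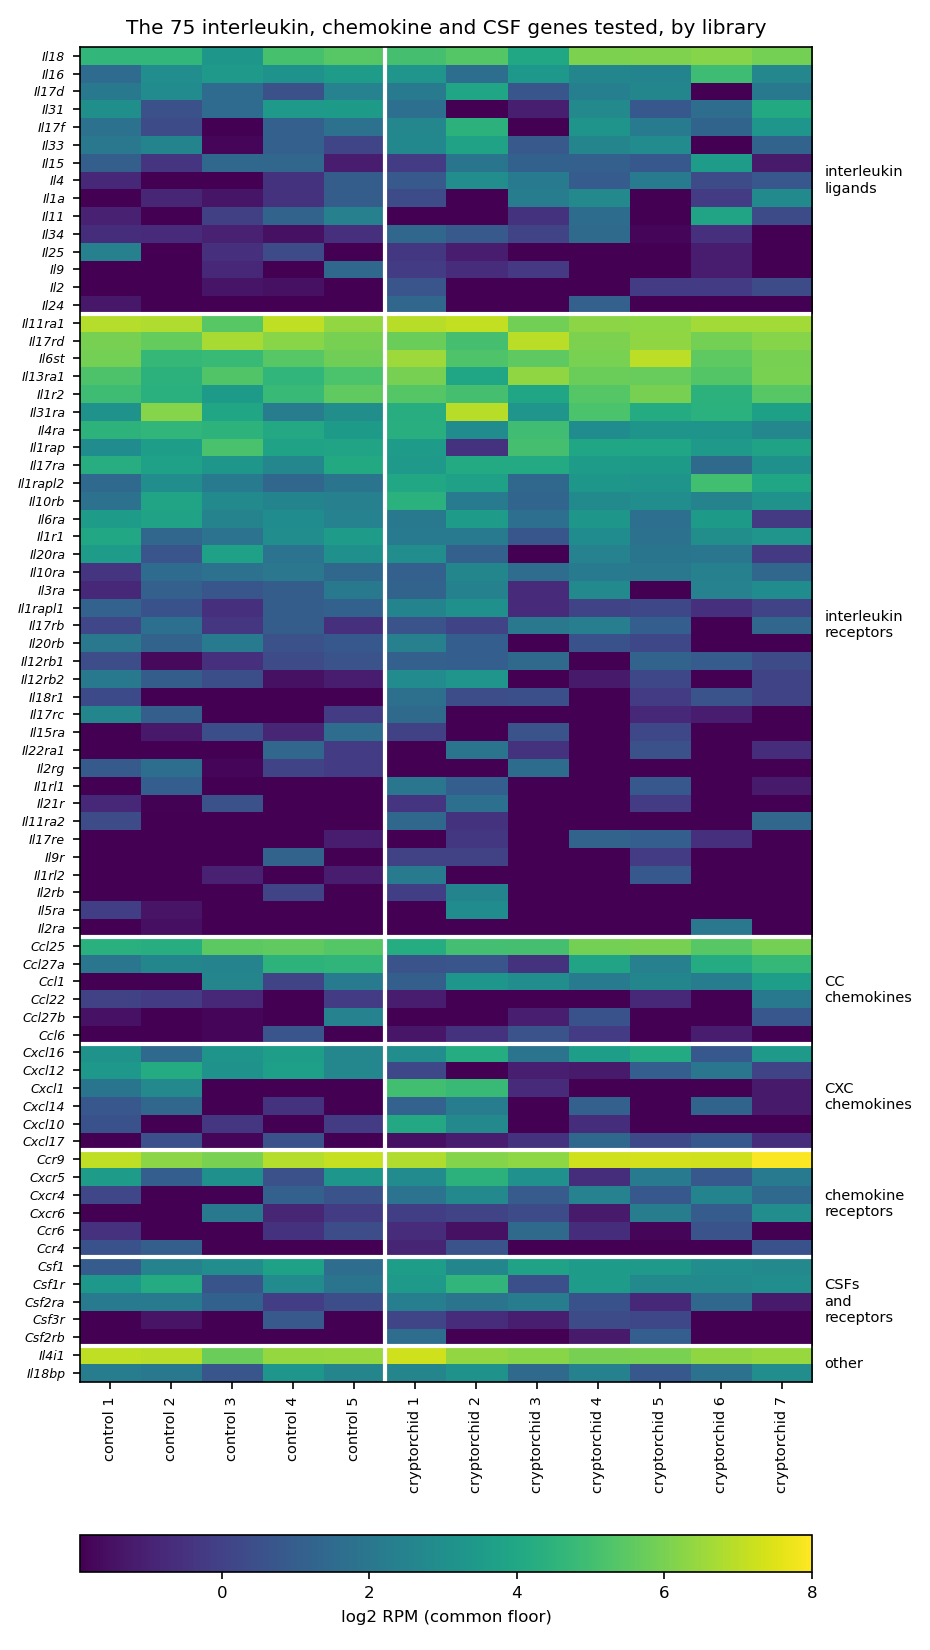
Level in log2 RPM, with the common floor as the darkest colour, of the 75 genes tested (rows, by role and by mean level) in 5 control and 7 cryptorchid libraries (columns; the vertical white line parts the groups). *Ccr9*, *Il11ra1* and *Il4i1* are bright in all 12 libraries, and *Cxcl12* is brighter in all 5 control libraries than in any of the 7 cryptorchid libraries.

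To ask which of these genes differ in cryptorchid spermatogonia, the groups were compared with limma over all 16932 genes, and a gene was called at a 2-fold difference and an unadjusted two-sided *P*-value under 0.05, the limits of the study's methods. Of the 75 genes tested, 5 were called higher in cryptorchid cells (*Il4*, *Ccl1*, *Cxcr4*, *Il1rapl2* and *Il18r1*), or 6.67%, beside 3.18% of all genes tested. Called lower was 1 gene, *Cxcl12*, or 1.33%, beside 2.45% of all genes. None of the 75 passed a Benjamini-Hochberg adjusted *P*-value of 0.05 in limma, which 0.0118% of all genes did (2 genes). An unadjusted *P*-value under 0.05 was found for 7 of the 75, beside 1551 of all 16932 genes, a similar share. In none of the 75 was every cryptorchid library above every control library, which was so for 0.555% of all genes. With voom on the recovered reads 0 passed as well, and over all the other settings tried 0 to 3 did. The share of all genes that passed in those settings was not counted. Adjusted *P*-values of the 6 called genes were 0.113 to 0.481 (limma). The median log2 difference over the 75 genes was 0.35, with 49 above zero, beside a median of 0.087 over all genes, with 9481 of 16932 above zero. This median was 0.17 without cryptorchid replicate 2 and 0.19 without control replicate 3, and 0.074 without the filter on low values.

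The libraries fell into 2 technical sets. The recovered read numbers were even more often than odd in 6 libraries (replicates 1 to 3 of each group, 53.2% to 60.8% even), and not in the other 6 (replicates 4 and 5 of the control and 4 to 7 of the cryptorchid group, 48.2% to 50.5%). The first are called technical set 1 and the others technical set 2. This division was found in the values, no label gives its cause, and both sets hold both groups (3 and 3 libraries, and 2 and 4 libraries). Of the 75 genes, 47 had a difference of the same sign in both sets. The share over all genes was not counted, so this number cannot be set against it. Differences within each set are given beside those of the called genes.

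**Figure D2:**
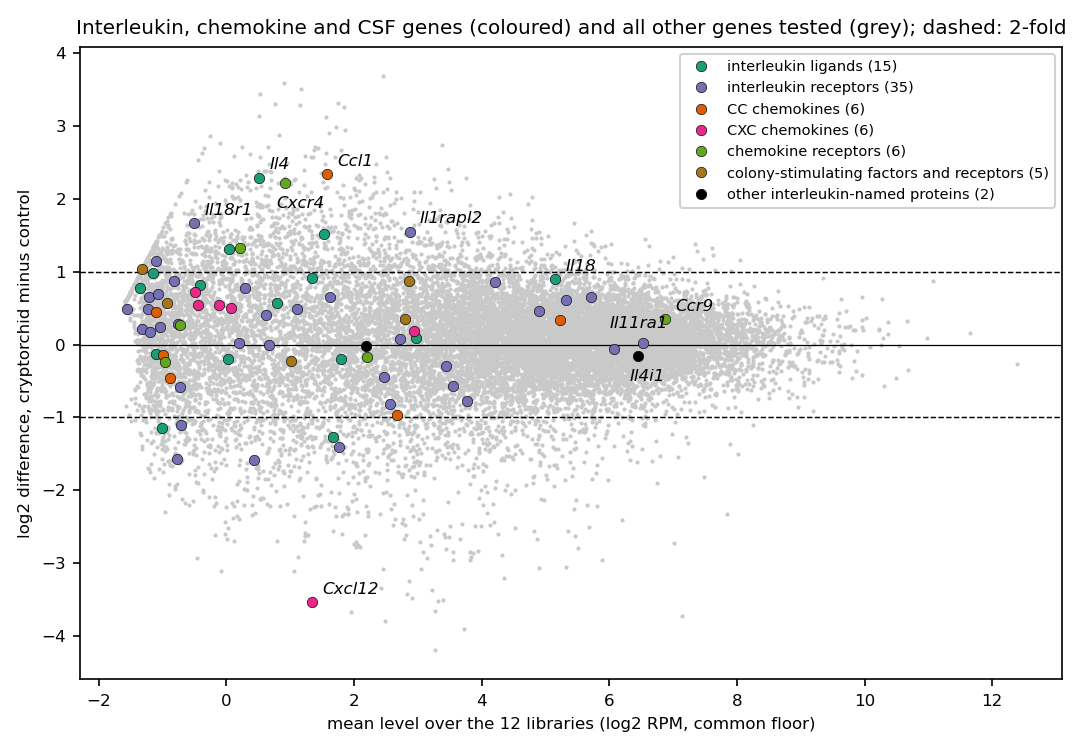
Log2 difference (cryptorchid minus control) against the mean level over the 12 libraries in log2 RPM, for all 16932 genes tested (grey) and the 75 genes by role (coloured). *Cxcl12* lies at -3.53, below the other coloured points, and *Ccl1*, *Il4* and *Cxcr4* lie between 2.22 and 2.34.

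*Cxcl12* (chr6:117168535-117181367 on the + strand of GRCm38), the gene with 5 SP1 boxes in its promoter window, fell in cryptorchid cells. Its level in the 5 control libraries was 3.37, 4.17, 3.16, 3.67 and 2.68 log2 RPM, from 251, 519, 91, 70 and 29 reads. In the 7 cryptorchid libraries it was 0.22, -1.92, -1.07, -1.21, 1.04, 1.98 and 0.10, from 26, 2, 4, 2, 7, 18 and 5 reads. Every cryptorchid library was below every control library, a pattern shown in this direction by 0.283% of all genes tested. The mean fell from 3.41 ± 0.56 (SD, n = 5) to -0.12 ± 1.37 (SD, n = 7), a log2 difference of -3.53 (SE 0.71, 95% interval -5.02 to -2.05), or 11.6-fold, with an unadjusted *P* of 8.9e-05 and an adjusted *P* of 0.113 (limma). The exact two-sided rank sum test gave *P* = 0.0025, the smallest that 5 against 7 libraries allow.

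The difference in *Cxcl12* was -4.49 within technical set 1 and -2.70 within set 2. It was -3.65 with a term for the set, where the adjusted *P* was 0.031 (limma). Leaving out cryptorchid replicate 6, the cryptorchid library with the highest level, gave -3.88 with an adjusted *P* of 0.038 (limma). The adjusted *P* was 0.015 with array weights, but 0.073 with quantile normalization and 0.078 with voom (limma). It was highest without control replicate 1, at 0.266, and no other single library left out brought it under 0.05 (limma). In bulk RNA, fewer cells that express a gene and less RNA per cell cannot be told apart.

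**Figure D3:**
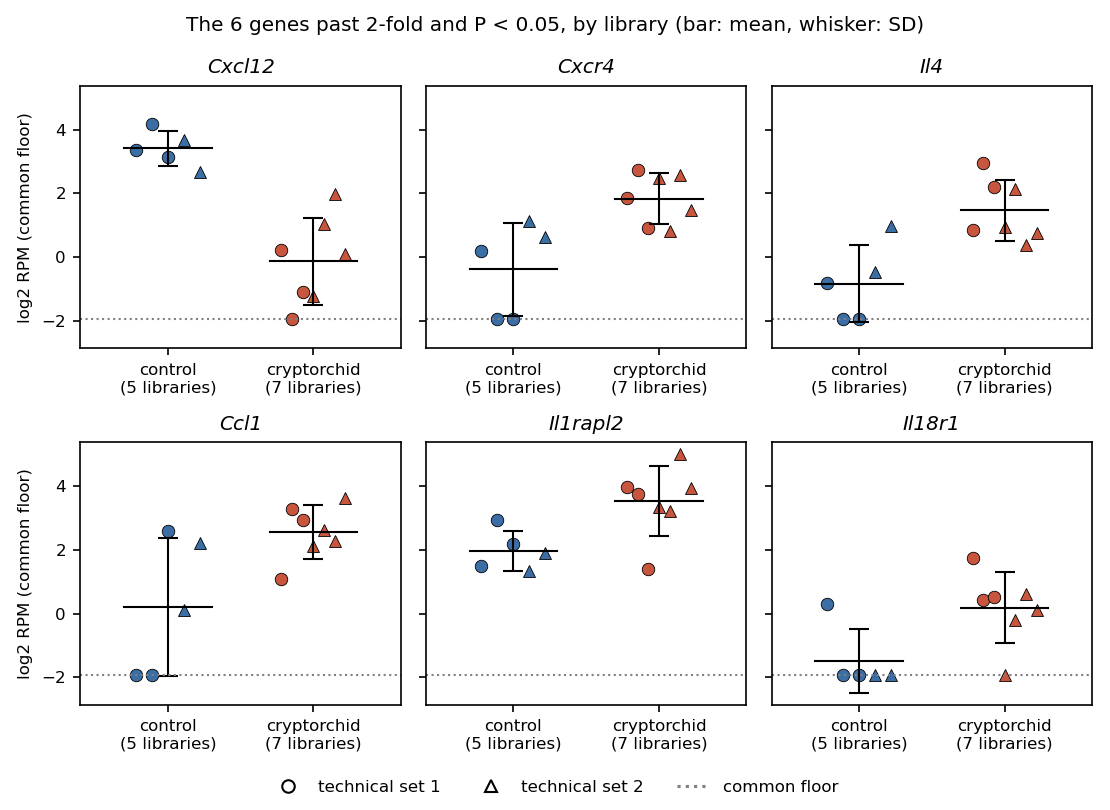
Level in log2 RPM of the 6 called genes in each control (blue) and cryptorchid (red) library, with the mean (bar), the SD (whisker) and the common floor (dotted line); circles are technical set 1 and triangles set 2. For *Cxcl12* the groups do not overlap, and for the 5 other genes at least 1 cryptorchid library lies within the control range.

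*Cxcr4* (chr1:128588199-128592293, - strand), the receptor of CXCL12, rose. The control libraries had 0.20, -1.92, -1.92, 1.13 and 0.63 log2 RPM, from 28, 5, 2, 12 and 7 reads, and the cryptorchid libraries 1.84, 2.75, 0.93, 2.49, 0.81, 2.57 and 1.48, from 80, 75, 16, 26, 6, 27 and 13 reads. Of the 7 cryptorchid libraries 5 were above the highest control library, and the other 2 lay between the 2 highest control libraries. The log2 difference was 2.22 (SE 0.71, 95% interval 0.72 to 3.72, unadjusted *P* = 0.0061, adjusted *P* = 0.319 in limma), and the exact two-sided rank sum *P* was 0.010. It was 3.06 within technical set 1 and 0.96 within set 2.

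The receptor *Ackr3*, which also binds CXCL12 and removes it, was at -1.13 ± 1.09 (SD, n = 5) in control and 0.37 ± 1.38 (SD, n = 7) log2 RPM in cryptorchid cells, with at most 41 reads in a library. Its difference of 1.50 (SE 0.78, adjusted *P* = 0.586, limma) did not pass the call.

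CXCL12 of the testis is known from somatic cells, and markers of the cells that could remain in the sort were read beside it. Sertoli cell markers without *Ctsl*, a protease gene that gave most of that list's reads, summed to 19.2 to 73.3 RPM in control and 17.3 to 59.4 RPM in cryptorchid libraries, and to 93.1 to 419 and 106 to 430 RPM with it. Peritubular myoid markers summed to 1.46 to 16.5 and 0.714 to 14.5 RPM, Leydig cell markers to 8.64 to 15.5 and 6.18 to 47.8 RPM, and endothelial markers to 24.6 to 43.2 and 29.1 to 61.7 RPM. The groups overlapped in each of these lists, and of the 28 markers in these 4 lists 22 were tested, none was called lower and 1, the endothelial cadherin *Cdh5*, was called higher (2.01, unadjusted *P* = 0.0071, adjusted *P* = 0.344 in limma). The androgen-making enzyme *Cyp17a1* had at most 3 reads in a library and *Hsd3b6* none. The undifferentiated spermatogonia list had all its 12 genes above the filter, none of them called, and summed to 1073 to 1595 RPM in control and 1224 to 1983 RPM in cryptorchid libraries. Differentiating spermatogonia markers summed to 99.3 to 175 and 114 to 298 RPM, and 1 of the 4, *Stra8*, was called higher (1.09, unadjusted *P* = 0.0035, adjusted *P* = 0.261 in limma). Of these 4 differentiation markers, 2 had a difference above zero, and *Dmrtb1*, at -0.76, was the lowest (limma). B cell markers summed to 0.222 to 3.82 and 0.857 to 16.6 RPM, with 2 of 4 tested and none called. The part of other cells in the *Cxcl12* result was not tested beyond these values.

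**Figure D4:**
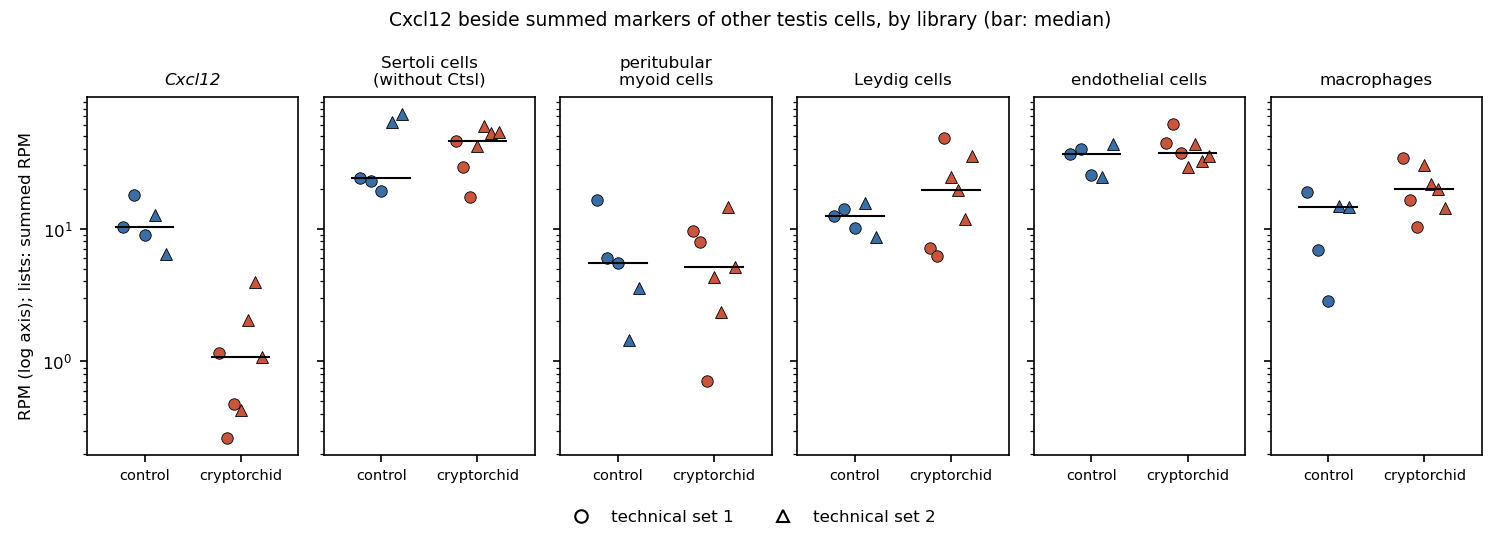
RPM of *Cxcl12* (floored at 0.2636 RPM) and summed RPM of the markers of 5 other cell types on a log axis, in each control (blue) and cryptorchid (red) library; bars are medians, circles technical set 1 and triangles set 2. The groups are apart for *Cxcl12* and overlap for each marker list.

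Of the other CXC chemokines, 6 were not tested, as *Cxcl13* had no read and *Cxcl2*, *Cxcl3*, *Cxcl5*, *Cxcl9* and *Cxcl15* fell below the filter. *Cxcl16*, a membrane-anchored chemokine, was at 2.83 ± 0.82 (SD, n = 5) and 3.01 ± 1.25 (SD, n = 7) log2 RPM, a difference of 0.18 (95% interval -1.13 to 1.50, limma). Exons of *Cxcl16* overlap those of *Zmynd15* on the other strand. The receptor of CXCL16, *Cxcr6*, differed by 1.33 (95% interval -0.46 to 3.12, adjusted *P* = 0.675, limma). *Cxcr6* was called higher with voom on the recovered reads (2.20) and without control replicate 3 (1.99). *Cxcl1*, a chemokine for neutrophils, was uneven within both groups. It had 94 and 192 reads in control replicates 1 and 2 and 707 and 303 reads in cryptorchid replicates 1 and 2, while the other 8 libraries had 0 to 5 reads.

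Among the CC chemokines, *Ccl1*, a ligand of CCR8 on T cells, rose. The control libraries had -1.92, -1.92, 2.58, 0.13 and 2.22 log2 RPM, from 4, 2, 61, 6 and 21 reads, and the cryptorchid libraries 1.08, 3.29, 2.93, 2.11, 2.62, 2.27 and 3.61, from 47, 109, 64, 20, 21, 22 and 57 reads. The control libraries were split, with 2 at the floor and 2 within the range of the cryptorchid group, and 4 cryptorchid libraries were above all of them. The log2 difference was 2.34 (SE 0.83, 95% interval 0.60 to 4.08, unadjusted *P* = 0.011, adjusted *P* = 0.378 in limma), with 2.85 in technical set 1 and 1.48 in set 2. *Ccr8* had at most 2 reads in a library.

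The CC chemokine with the highest level per length was *Ccl25*, known as the thymic and gut ligand of CCR9. It was at 5.03 ± 0.66 (SD, n = 5) and 5.37 ± 0.65 (SD, n = 7) log2 RPM and did not pass the test (difference 0.34, 95% interval -0.42 to 1.10, limma). *Ccr9* was the chemokine receptor with the highest level per length, at 6.67 ± 0.49 (SD, n = 5) and 7.02 ± 0.63 (SD, n = 7) log2 RPM, from 551 to 3191 reads. Its difference was 0.35 (95% interval -0.32 to 1.02, limma). Thus both sides of this pair were read in every library, although exons of *Ccl25* overlap those of *Elavl1* on the other strand, and the counting strand is not stated.

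*Ccl27a*, the chemokine of skin-homing T cells, followed the technical sets. Within set 1 it was at 1.96, 2.63 and 2.51 log2 RPM in control and 0.61, 0.69 and -0.49 in cryptorchid libraries, which do not overlap. Within set 2 it was at 4.51 and 4.58 in control and 3.88, 2.40, 4.17 and 4.67 in cryptorchid libraries, which do. The pooled difference of -0.96 had an unadjusted *P* of 0.284 (limma). With a term for the set *Ccl27a* was called lower (-1.47, unadjusted *P* = 0.013, adjusted *P* = 0.288, limma). Its exons meet those of *Il11ra1* on the other strand, and it has a near-identical copy, *Ccl27b*. *Ccr10*, its receptor, had at most 4 reads in a library.

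Of the 15 interleukin ligands tested, 1 was called higher in the main limma comparison, with the common floor, all libraries, equal weights and no further term. This was *Il4*, and none was called lower. *Il17f*, at 1.52, was called higher without cryptorchid replicate 3, at 2.20. IL-4 is the type 2 cytokine of helper T cells and mast cells. Its control libraries had -0.80, -1.92, -1.92, -0.46 and 0.995 log2 RPM, from 14, 3, 0, 4 and 9 reads, and its cryptorchid libraries 0.84, 2.95, 2.21, 0.96, 2.14, 0.40 and 0.78, from 40, 86, 39, 9, 15, 6 and 8 reads. Only 3 cryptorchid libraries were above the highest control library, but all 7 were above the control median. The log2 difference was 2.29 (SE 0.71, 95% interval 0.80 to 3.78, unadjusted *P* = 0.0046, adjusted *P* = 0.285 in limma), with 3.55 in technical set 1 and 0.80 in set 2.

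Receptor subunits for IL-4 were read in both groups, and none passed the call in the main limma comparison. *Il4ra*, its binding subunit, was at 4.23 and 3.46 log2 RPM in control and cryptorchid cells (difference -0.77, 95% interval -1.72 to 0.18, limma), and it was called lower without cryptorchid replicate 3 (-1.02). *Il13ra1*, the partner subunit of cells outside the blood lineage, was at 4.96 and 5.58 (difference 0.62, 95% interval -0.16 to 1.39, limma), and *Il2rg*, the partner subunit of blood cells, at 0.14 and -1.42 (difference -1.57, 95% interval -3.21 to 0.08, limma). *Il2rg* was called lower with voom on the recovered reads (-3.64), with array weights (-1.97), without the common floor (-2.38), without control replicate 3 (-2.05) and without cryptorchid replicate 3 (-2.07). Technical set 2 alone also called it lower (-1.90, unadjusted *P* = 0.00019, adjusted *P* = 0.087, limma). T and NK cell markers, of which 4 of 9 were tested and none was called, summed to 4.80 to 11.3 RPM in control and 3.21 to 12.5 RPM in cryptorchid libraries, with *Nkg7* at 0 reads in all. Granulocyte and mast cell markers summed to 0 to 6.12 and 0 to 3.63 RPM, with *S100a8* and *Mcpt4* at 0 reads in all. The part of such cells in the *Il4* result was not tested.

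*Il18* (chr9:50554827-50581840, + strand), the interleukin with the highest level per length, had 102 to 750 reads in each library. It was at 4.67, 4.64, 3.32, 5.10 and 5.43 log2 RPM in control and 5.07, 5.38, 3.97, 6.06, 6.08, 6.18 and 5.92 in cryptorchid libraries. Within each group the libraries of technical set 2 were above those of set 1. The difference of 0.89 (SE 0.42, 95% interval 0.02 to 1.77) had an unadjusted *P* of 0.046 (adjusted 0.534, limma) and stayed under 2-fold, with 0.60 in technical set 1 and 0.80 in set 2. The exact two-sided rank sum test gave 0.106. The difference passed 2-fold and an unadjusted *P* of 0.05 without control replicate 4 (1.01) or 5 (1.09) or cryptorchid replicate 3 (1.15).

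The binding subunit of the IL-18 receptor, *Il18r1* (chr1:40465552-40500854, + strand), rose from near the floor. The control libraries had 30, 0, 0, 0 and 1 reads and the cryptorchid libraries 74, 15, 12, 0, 3, 7 and 5. On the log2 RPM scale 4 control libraries and 1 cryptorchid library were at the floor, control replicate 1 was at 0.30, and the other cryptorchid libraries were at -0.19 to 1.73. The mean of *Il18r1* was 0.0603 RPM per kb in control and 0.284 in cryptorchid cells. It passed the filter on low values only through the cryptorchid libraries, as its control mean alone was below that limit. The log2 difference was 1.66 (SE 0.71, 95% interval 0.17 to 3.16, unadjusted *P* = 0.031, adjusted *P* = 0.481 in limma), with 2.07 in technical set 1 and 1.58 in set 2. The call was lost without any of the control replicates 2 to 5 (1.55, unadjusted *P* = 0.063 to 0.066), without cryptorchid replicate 1 (1.40, unadjusted *P* = 0.061) and with array weights (1.24, unadjusted *P* = 0.098), each in limma, and on the log2(RPM + 1) scale, where the difference of 0.84 was under 2-fold. In set 2 alone the unadjusted *P* was 0.075 (limma), and the gene was not tested with the filter at 1. *Il18rap*, the signalling subunit that the receptor needs, had at most 2 reads in a library, and *Il18bp*, the soluble inhibitor of IL-18, differed by -0.014 (limma). Exons of *Il18bp* overlap those of *Numa1* on the other strand.

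The second interleukin receptor gene called higher was *Il1rapl2* (chrX:137570608-138846946, + strand), an IL-1 receptor family member of neurons with no known cytokine ligand. The control libraries had 1.48, 2.94, 2.17, 1.35 and 1.91 log2 RPM, from 14 to 220 reads, and the cryptorchid libraries 3.98, 3.75, 1.39, 3.34, 3.23, 4.99 and 3.95, from 22 to 351 reads. Of the cryptorchid libraries 6 were above every control library, and replicate 3 was at the lower end of the control range. The log2 difference was 1.55 (SE 0.58, 95% interval 0.33 to 2.76, unadjusted *P* = 0.015, adjusted *P* = 0.410 in limma), with 0.84 in technical set 1 and 2.25 in set 2. Its relative *Il1rapl1* was at 0.68 log2 RPM in both groups, but was called lower in technical set 2 alone (-1.12, unadjusted *P* = 0.044, limma).

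Apart from these 2, none of the 35 interleukin receptor genes tested passed the call in the main limma comparison. With array weights *Il31ra* (1.29) and *Il17re* (1.58) were called higher. *Il17re* had at most 11 reads in a library. It passed the filter on low values only through the cryptorchid libraries, as its control mean alone was below that limit. *Il31ra* was called higher also without control replicate 2 (1.48) and in technical set 2 alone (1.73). *Il11ra1* was at 6.51 ± 0.65 (SD, n = 5) and 6.53 ± 0.43 (SD, n = 7) log2 RPM (95% interval of the difference -0.61 to 0.66, limma), and *Il17rd*, which is also an inhibitor of FGF signalling, differed by -0.059 (95% interval -0.69 to 0.57, limma). *Il6st*, the shared signalling subunit for IL-6, IL-11 and LIF, was at 5.33 and 5.98 log2 RPM (difference 0.65, adjusted *P* = 0.588, limma), and *Il1r2* at 4.63 and 5.09 (difference 0.46, adjusted *P* = 0.764, limma). Both subunits that bind the cytokines of the IL-20 group were at lower values in cryptorchid cells without passing the test, *Il20ra* by -1.40 (adjusted *P* = 0.641) and *Il20rb* by -1.58 (adjusted *P* = 0.586, limma). *Il20ra* was called lower without control replicate 2 (-1.88), and *Il20rb* with voom (-2.06) and without cryptorchid replicate 1 (-2.02) or 2 (-1.79). *Il31*, an itch cytokine of T cells, was at 0.55 to 3.50 and -1.92 to 4.12 log2 RPM (difference -1.26, adjusted *P* = 0.722, limma), and its exons overlap *Lrrc43* on the other strand. Its difference was -2.13 within technical set 1 and -1.14 within set 2. With a term for the set *Il31* was called lower (-1.66, unadjusted *P* = 0.043, adjusted *P* = 0.424, limma).

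In the colony-stimulating factor group, 5 of 8 genes were tested and none was called in the main limma comparison. *Csf1* had 0.95, 2.50, 2.95, 3.75 and 1.63 log2 RPM in control and 3.62, 2.63, 3.80, 3.52, 3.40, 2.94 and 2.73 in cryptorchid libraries. All 7 cryptorchid libraries were above the control median, and 1 was above the highest control library. The difference was 0.88 (SE 0.53, 95% interval -0.24 to 1.996, adjusted *P* = 0.649, limma). It was called higher with voom on the recovered reads (1.12) and without control replicate 4 (1.23). *Il34*, the other ligand of CSF1R, was read rarely (at most 57 reads) and differed by 0.82 (95% interval -0.71 to 2.34, limma).

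Their receptor *Csf1r*, the receptor by which CSF1 maintains macrophages, was at 0.65 to 4.20 log2 RPM in control and 0.51 to 4.60 in cryptorchid libraries. Its difference was 0.35 (95% interval -1.11 to 1.82, limma), and its exons overlap those of *Hmgxb3* on the other strand. Macrophage markers summed to 2.84 to 18.8 RPM in control and 10.2 to 33.9 RPM in cryptorchid libraries, none of the 12 was at 0 in all libraries, 7 were tested, and 1, the mannose receptor *Mrc1*, was called higher (2.02, unadjusted *P* = 0.0019, adjusted *P* = 0.219 in limma). Of the 7 macrophage markers tested, 4 had a difference above zero, and *Cd14*, at -1.21, was the lowest (limma). The complement gene *C1qc* had at most 5 reads in a library. The part of macrophages in the *Csf1r* values was not tested.

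Of 50 other genes of these pathways, which are no part of the symbol rule, 42 were tested, and 0 were called higher and 1 lower, with a median log2 difference of 0.052. Of the 11 kinases and adaptors, such as the JAK kinases and *Myd88*, all were tested and none was called, with differences from -0.67 to 0.44. Of the 15 inhibitors, the STAT3 inhibitor *Pias3* was called lower (-1.83, SE 0.76, unadjusted *P* = 0.027, adjusted *P* = 0.463 in limma), and *Socs3*, a feedback inhibitor that such cytokines induce, differed by 1.21 (adjusted *P* = 0.621, limma). None of the 6 other chemokine genes and none of the 10 other cytokine genes tested, including the LIF receptor *Lifr*, was called.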

How the data were processed

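RNA-seq values of 12 libraries (5 control, 7 cryptorchid) were used, each read by its column name and mapped to a group by its sample title. For the deposited log2 RPM values, the authors used Trim Galore 0.6.6 for trimming, HISAT2 2.1.0 for mapping to mm10 and SeqMonk for counting over UCSC protein-coding genes. Reads were recovered from the RPM steps, with a library's minimum standing for no read (0.9 reads), and every value under 1000 reads came out whole within 0.02 reads. As log2 RPM values are not counts, edgeR, the tool of the authors, was replaced by limma 3.58.1 (lmFit, eBayes with trend) in R 4.3.3. Values were floored at -1.92 log2 RPM, so fold changes of low genes are understated, and Benjamini-Hochberg adjustment was over all 16932 genes. Exact tests and plots used Python 3.11.15, numpy 2.4.6, pandas 2.3.3, scipy 1.17.1 and matplotlib 3.10.9. Positions are from GENCODE vM21 (GRCm38, the same build as mm10), which held 142 of the 143 genes.

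Genes named are those called at 2-fold and an unadjusted *P* under 0.05 or with no overlap of the groups, the top 2 by RPM per kb in each of 6 roles, the pairs *Cxcl12*-*Cxcr4* and *Csf1* or *Il34*-*Csf1r*, and *Il4*. Other genes (receptors or ligands of these, genes below the limit and list members) were named after their values were seen. The gene families, lists and rules were chosen with earlier results of these data known. Alternatives were other floors, pseudocounts, filters and normalizations, voom, array weights, a term for the technical set, a replicate block, and each library left out. Each technical set alone was added after the data were seen. No batch label, ChIP-seq value or protein sequence was used here.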

Additional observations from a re-analysis of the deposited data

Results flagged for a closer look

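Of 38 groups of 4 to 10 samples examined among the named genes, 1 held a sample that stood far from the others. *Il18r1* was at 0.30 log2 RPM (30 reads) in control replicate 1, while the other 4 control libraries were at the common floor of -1.92. Control replicate 1 was among the deepest libraries, and the part of depth in this gap was not tested. Chance marks about 1 in 20 such groups where the values are not tied. With 4 libraries at the floor, any value above it would have been marked, so this rate does not apply to *Il18r1*. Without this library the log2 difference of *Il18r1* was 2.11, in place of 1.66 (limma).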

How the results depend on the processing

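*Cxcl12*, *Cxcr4*, *Il4*, *Ccl1* and *Il1rapl2* kept their call under every setting in which all libraries or all but 1 were fitted. *Cxcl12* ranged from -3.9996 to -2.49. The number of genes called lower, 1 as reported, was 2 without the common floor, 3 with voom (where 8 were higher), 2 with array weights and 3 with a term for the technical set, and 1 to 3 with single libraries left out (2 without control replicate 2 or 3 or cryptorchid replicate 1 or 2, and 3 without cryptorchid replicate 3). The number past an adjusted *P* of 0.05 in limma was 1 with array weights and 1 with the set term (*Cxcl12*), and 0 to 1 with libraries left out (1 without cryptorchid replicate 6). Technical set 1 alone called 3 higher (*Il18r1*, *Cxcr4* and *Il4*) and 2 lower (*Ccl27a* and *Cxcl12*). Set 2 alone called 2 higher (*Il31ra* and *Il1rapl2*) and 3 lower (*Cxcl12*, *Il1rapl1* and *Il2rg*). Of the 6 called genes, only *Cxcl12* was thus called in each set alone, and *Ccl1* was called in neither. None of the calls in a set alone passed an adjusted *P* of 0.05 (limma). The share of all genes called was counted only for the main comparison, so the numbers of the other settings cannot be set against it. Requiring groups without overlap left 0 higher. Among the 19 genes of the naming rule, differences that turned sign were those of *Il11ra1* (-0.020 with quantile normalization, -0.043 with median centring, -0.22 with array weights, -0.26 in set 2, -0.25 to 0.16 with libraries left out), *Cxcl1* (-0.085 with array weights, -0.28 to 1.24 with libraries left out), *Cxcl16* (-0.13 in set 2, -0.16 to 0.55), *Ccr9* (-0.0089 in set 1), *Cxcr5* (0.24 with voom, 0.11 with the set term, 0.91 in set 1, -0.62 to 0.28) and *Csf1r* (-0.14 to 0.76). The cause of these changes was not tested.

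With the replicate number as a block, 7 genes were called higher, among them *Il31ra* and *Il33*, and 3 lower (*Cxcl12*, *Ccl27a* and *Il31*). In this fit 3 passed an adjusted *P* of 0.05 in limma (*Ccl27a*, *Cxcl12* and *Il6st*), *Il11ra1* was at -0.013 and *Cxcr5* at 0.080. How many of all genes were called or passed in this fit was not counted, so these numbers cannot be set against a share. No label ties equal numbers to 1 mouse. Deviations of same-numbered libraries correlated at 0.442, 0.433, 0.474, 0.255 and 0.037, and replicates 1 to 4 each correlated best with their own number. Replicate 5 of the control correlated best with cryptorchid replicate 7, and not every pair was over 0.1, so the numbers were not taken as pairs.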
